A study of Homo sapiens with 2 samples.

Results

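Y RNAs and vault RNAs are 2 small families of short non-coding RNAs made by RNA polymerase III. The genes described here were RNY1, RNY3, RNY4 and RNY5 (the human Y RNA genes) and VTRNA1-1, VTRNA1-2, VTRNA1-3 and VTRNA2-1 (the human vault RNA genes). They were taken by exact symbol, and all 8 were listed, among 741078 features in all. Generic rows named Y_RNA, which are dispersed copies, were not members. The data were CLIP-seq libraries, in which RNA held by an antibody-purified protein is sequenced. The protein was hTrmt13, a tRNA methyltransferase, and the cells were MDA-MB-231, an established breast carcinoma line with mesenchymal features. There was 1 group of 2 replicates, with no treatment or genotype difference named, and no input or antibody control library was analysed here. Each value is therefore a level of recovered RNA, not an enrichment, and what part of it follows from the abundance of an RNA in the cells was not tested. Nothing in the labels ties the replicates to separate cultures, so the SDs measure only the spread between these samples, which may be technical.

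Each library had 1 count table per read mate, R1 and R2. Replicate 1 held 27907799 R1 and 11246823 R2 counts, and replicate 2 held 20590398 and 8793089. Levels are counts per 1000000 counts of the table (CPM), from R1 unless stated. The labels name no molecular identifiers, and PCR copies are not independent molecules, so intervals cover counting error only. Among markers of the line, VIM, which encodes the mesenchymal filament vimentin, stood at 24.4 ± 15.1 CPM (SD, n = 2). The epithelial markers CDH1, EPCAM, KRT8 and KRT18 lay between 0.941 and 1.96 CPM. The other mesenchymal markers lay within or below that range, with SPARC, which encodes a matrix protein, at 1.21 CPM and CD44, which encodes a surface receptor, at 0.385 CPM. Of markers of other cell types, the neuronal RBFOX3 stood at 1.74 CPM and the leukocyte PTPRC at 0.331 CPM, and the liver marker ALB had 0 counts.

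Y RNAs fold back into a long stem, joining their 5′ and 3′ ends, with a large loop. The protein Ro60 binds the stem and the La protein binds the run of U at the 3′ end, and Y RNAs are known for roles in RNA quality control and in the start of DNA replication. Vault RNAs were named as a component of the vault, a large barrel-shaped particle built of the major vault protein, although most of the vault RNA of a cell lies outside it. VTRNA1-1 is known for a role in autophagy through the receptor p62. VTRNA2-1, also called nc886, differs from the other vault RNAs and is known as an inhibitor of the kinase PKR. Vault RNA genes carry the internal promoter elements called A box and B box, as tRNA genes do, whereas Y RNA genes use a promoter outside the transcript.

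The sequences below are shown because the counts of these genes rest on what they share with one another and with dispersed copies. They are GENCODE release 29 transcripts (given as DNA letters, 5′ to 3′), matched by gene identifier. Of the 8 genes, 7 had one, and each had the length of its span in the tables. RNY5 had none. RNY1 and RNY4 are shown for the Y RNAs, and capitals mark their first 11 bases, which are the same in both.
RNY1: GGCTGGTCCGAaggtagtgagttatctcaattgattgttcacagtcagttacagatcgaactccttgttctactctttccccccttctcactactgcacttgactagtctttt
RNY4: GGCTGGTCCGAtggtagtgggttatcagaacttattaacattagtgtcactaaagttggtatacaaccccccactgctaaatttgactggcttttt
In the vault RNAs, capitals mark letters of the A box (searched as T, any base, GC, any 2 bases, A, any 3 bases, G) and of the B box (searched as GTTCGA, any 2 bases, CC) on the strand shown. Both strands were searched, and the motifs do not overlap on the strand shown.
VTRNA1-1: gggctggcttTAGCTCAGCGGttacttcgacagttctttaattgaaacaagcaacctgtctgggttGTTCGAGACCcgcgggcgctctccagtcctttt
VTRNA1-2: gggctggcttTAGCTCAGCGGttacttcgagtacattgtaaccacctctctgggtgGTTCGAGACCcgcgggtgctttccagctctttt
VTRNA1-3: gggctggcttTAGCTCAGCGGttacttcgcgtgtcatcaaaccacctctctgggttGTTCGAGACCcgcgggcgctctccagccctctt
VTRNA2-1: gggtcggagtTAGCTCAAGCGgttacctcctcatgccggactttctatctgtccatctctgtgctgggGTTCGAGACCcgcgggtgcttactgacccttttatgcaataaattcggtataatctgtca

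Each of the 4 vault RNAs held both boxes on the strand shown. The A box letters began at base 11 in each of them. The B box letters began at base 67 in VTRNA1-1, at base 57 in VTRNA1-2 and VTRNA1-3, and at base 69 in VTRNA2-1. Neither motif was found in RNY1, RNY3 or RNY4 on either strand, and VTRNA2-1 held a further A box match on the other strand. Among 22907 GENCODE transcripts of at most 400 bases, 14.6% held the A box letters on the given strand, 0.362% the B box letters and 0.148% both. On either strand the shares were 27.2% and 0.554%. The A box letters are therefore common among short transcripts and the B box letters are not. The A box search fixes fewer letters than the B box search, so any sequence meets it more easily.

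VTRNA1-1, VTRNA1-2 and VTRNA1-3 shared their first 29 bases, and their identity was 82.0% to 87.8% between pairs. VTRNA2-1 shared only its first 3 bases with them, and its identity to them was 57.9% to 60.5%. Among the Y RNAs, RNY1 and RNY3 were the closest pair at 73.0% identity, against 67.3% for RNY3 and RNY4 and 64.7% for RNY1 and RNY4. The listed sequence of RNY1 ends in 4 T, that of RNY4 in 5 T and that of VTRNA1-3 in 2 T. The listed span of VTRNA2-1 ends in no T.

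On the hg19 build, the Y RNA genes lie together on chromosome 7. RNY5 (148638580 to 148638658, 79 bases), RNY4 (148660407 to 148660502, 96 bases) and RNY3 (148680847 to 148680948, 102 bases) are on the plus strand, and RNY1 (148684228 to 148684340, 113 bases) is on the minus strand. The vault RNA genes lie on chromosome 5. VTRNA1-1 (140090860 to 140090958, 99 bases), VTRNA1-2 (140098510 to 140098598, 89 bases) and VTRNA1-3 (140105743 to 140105831, 89 bases) are on the plus strand. VTRNA2-1 (135416159 to 135416286, 128 bases) lies apart from them on the minus strand. The tables list 0 features that overlap any of the 8 genes on either strand, piRNAs included, so their counts are not shared with an enclosing row. No listed interval lies within them either, so where in each RNA the reads fell is not known.

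RNY1 led the Y RNAs in both libraries. Its counts were 3496 and 2668 in the first and second library, which are 125 and 130 CPM (127 ± 3.04, SD, n = 2). RNY5 had 558 and 372 counts (19.0 ± 1.36 CPM), RNY3 had 253 and 197 (9.32 ± 0.355 CPM), and RNY4, the lowest, had 76 and 49 (2.55 ± 0.243 CPM; SD, n = 2 each). The order of these genes was the same in both replicates. The replicates stood close together in CPM, which rests on total counts, and less so under the other scaling given below. By counts, RNY1 made up 79.8% and 81.2% of the Y RNA sum, with 95% Clopper-Pearson intervals of 78.5 to 80.9% and 79.8 to 82.5%. The Y RNA sum was 0.0158% ± 0.000179 (SD, n = 2) of all R1 counts, from 4383 and 3286 counts.

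VTRNA1-2 led the vault RNAs. Its counts were 616 and 450, at 22.0 ± 0.154 CPM (SD, n = 2). VTRNA1-1 had 324 and 251 counts (11.9 ± 0.410 CPM), and VTRNA1-3 had 205 and 156 (7.46 ± 0.163 CPM; SD, n = 2 each). VTRNA1-2 made up 53.8% and 52.5% of the vault RNA counts (95% Clopper-Pearson intervals 50.9 to 56.7% and 49.1 to 55.9%), against 28.3% and 29.3% for VTRNA1-1. These intervals lie apart from those of VTRNA1-1, whose upper ends were 31.0% and 32.5%. VTRNA2-1 had 0 counts in all 4 tables. The upper end of its 95% Clopper-Pearson interval was 0.132 CPM in R1 of replicate 1 and 0.179 CPM in R1 of replicate 2. The vault RNA sum was 0.00413% ± 4.20e-05 (SD, n = 2) of all R1 counts, from 1145 and 857 counts. Within a library, the Y RNA sum was 3.83 times the vault RNA sum in both replicates.

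**Figure D1:**
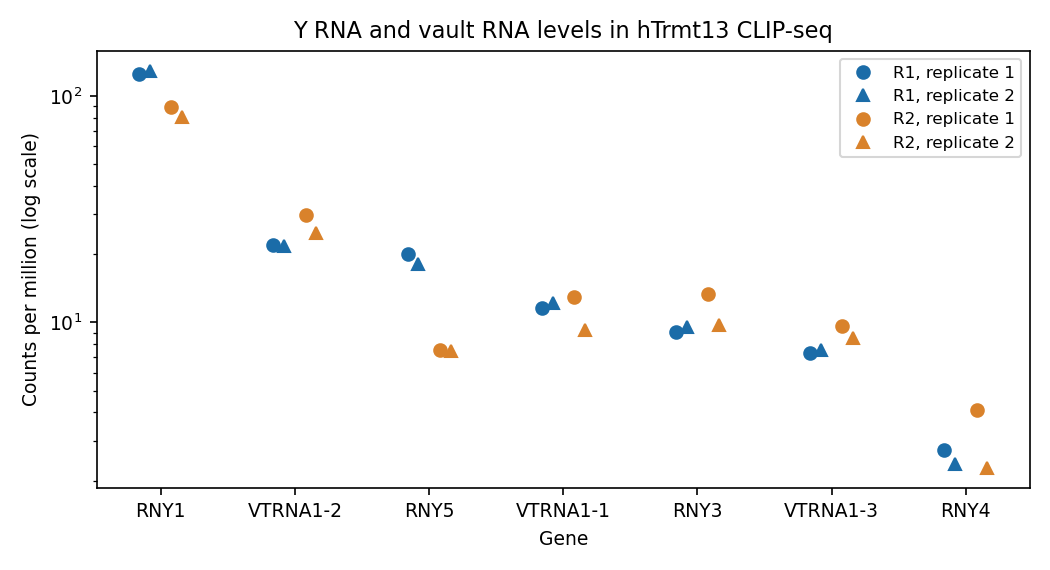
CPM (log axis) of the 7 Y RNA and vault RNA genes with counts, for each mate (blue R1, orange R2) and library (circle replicate 1, triangle replicate 2). RNY1 stands above the rest at 125 and 130 CPM in R1, and RNY5 falls from 19.0 CPM in R1 to 7.53 CPM in R2 (means of 2 libraries); VTRNA2-1 had 0 counts and is not drawn.

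Per kilobase of listed length, RNY1 stood at 1128 ± 26.9 CPM per kilobase. It was followed by VTRNA1-2 (247 ± 1.73), RNY5 (241 ± 17.3), VTRNA1-1 (120 ± 4.15), RNY3 (91.3 ± 3.48), VTRNA1-3 (83.8 ± 1.83) and RNY4 (26.6 ± 2.53; SD, n = 2 each). VTRNA1-2 and RNY5 overlapped across the libraries, at 248 and 246 against 253 and 229 CPM per kilobase, so their order is not settled. The other neighbours did not overlap in R1, but with 2 values per gene that does not settle their order. In R2, RNY3 at 113 ± 24.7 CPM per kilobase was level with VTRNA1-1 at 112 ± 26.3 (SD, n = 2 each). Among 13743 listed features of at most 400 bases outside tRNA and piRNA rows, ranked by mean CPM, RNY1 ranked 14, VTRNA1-2 ranked 26 and RNY5 ranked 30. VTRNA1-1, RNY3 and VTRNA1-3 ranked 41, 47 and 60, and RNY4 ranked 169.

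The mates did not recover these genes evenly. The R2 count of RNY5 was only 15.2% of its R1 count in replicate 1 and 17.7% in replicate 2, the lowest of the 7 genes with counts in both libraries. For RNY1 it was 28.9% and 26.6%. The vault RNAs kept more in R2, with 54.2% and 48.7% for VTRNA1-2, 52.7% and 48.1% for VTRNA1-3, and 44.8% and 32.3% for VTRNA1-1. RNY3 (59.3% and 43.7%) and RNY4 (60.5% and 40.8%) stood above all 3 vault RNAs in replicate 1 and below VTRNA1-2 and VTRNA1-3 in replicate 2. For the whole tables the ratio was 40.3% and 42.7%, for 701 features of at most 400 bases it had a median of 38.5% and 37.5%, and for 13220 protein-coding genes of 87.8% and 84.6%. The 7 genes thus lay below the protein-coding median in both libraries and on both sides of the median of short features. All 7, RNY5 included, lay above the median of 187 dispersed Y RNA copies with a mean R1 count of at least 10. That median was 14.3% and 11.8%. With 2 libraries no test of these differences was made.

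The order of the genes changed with the mate. In R2, RNY1 still led at 85.3 ± 6.26 CPM, followed by VTRNA1-2 at 27.3 ± 3.39 CPM (SD, n = 2 each). RNY5 dropped behind RNY3, VTRNA1-1 and VTRNA1-3, at 7.53 ± 0.0366 CPM against 11.6 ± 2.51, 11.1 ± 2.60 and 9.07 ± 0.759 CPM (SD, n = 2 each), and below each of them in both libraries. The Y RNA sum was 2.198 times the vault RNA sum in replicate 1 of R2 and 2.35 times in replicate 2, lower than in R1 by more than the spread between replicates.

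**Figure D2:**
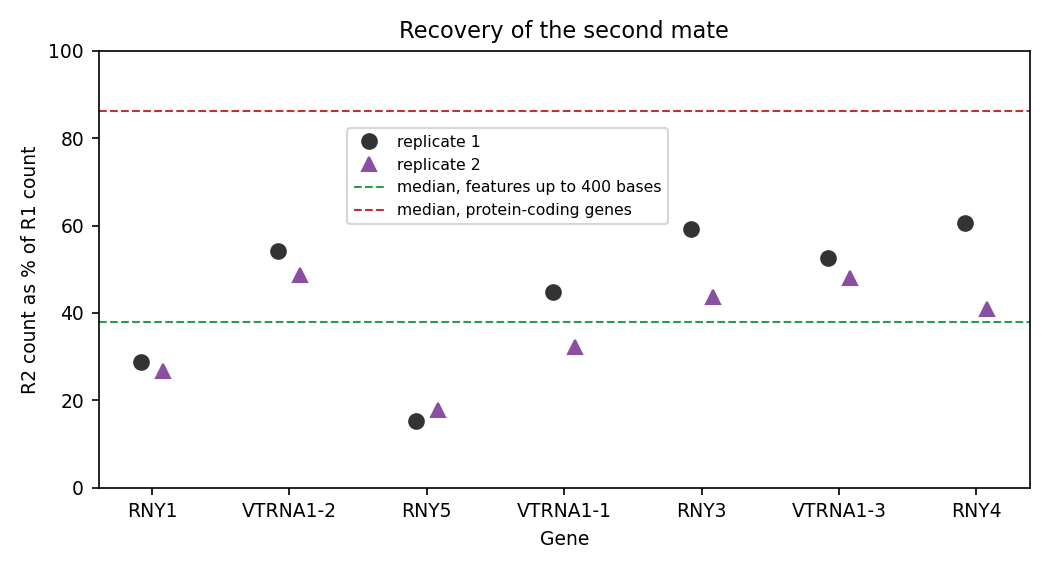
R2 count as a percentage of the R1 count for each gene with counts, in replicate 1 (black circle) and replicate 2 (purple triangle); dashed lines are medians of short features (green) and of protein-coding genes (red), averaged over the 2 libraries. RNY5, at 15.2% and 17.7%, and RNY1, at 28.9% and 26.6%, lie below the green line in both libraries.

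Rows of dispersed copies held most of the counts of Y RNA genes and copies combined. Overlap of the copies with other features is not given here, and whether their reads come from Y RNA was not tested. The tables list 856 copies, of which 803 are named Y_RNA and the rest are numbered pseudogenes of RNY1, RNY3, RNY4 or RNY5. Together the copies held 14820 and 10477 R1 counts, so the 4 Y RNA genes held 22.8% and 23.9% of the counts of genes and copies combined. In R2 these shares were 22.6% and 23.6%. Of the copies, 289 had no R1 count in either library and 187 had a mean count of at least 10. For vault RNAs the picture was the other way round, with 5 other rows that held 24 and 14 R1 counts, and 97.9% and 98.4% of the counts in the 4 genes. VTRNA3-1P, a pseudogene on the X chromosome, held 24 of these in replicate 1.

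How far a count belongs to 1 gene differed by family. A GENCODE sequence was found for 776 of the 856 Y RNA copies. None of these equalled RNY1, RNY3 or RNY4, the closest differing from RNY3 by 3 edits, and RNY5 could not be compared. Every window of 20 bases of RNY1, RNY3 and RNY4 also occurred in at least 1 copy. At 30 bases the share was 96.4% for RNY1, 100% for RNY3 and 83.6% for RNY4. For the vault RNAs with counts, 14.3% to 16.3% of windows of 20 bases occurred in another vault row, and 0% to 4.29% of windows of 30 bases. How reads with several matches were placed is not given in the sources used here, so the counts of single Y RNA genes are uncertain, and those of the vault RNAs are less exposed to copies. Of the windows of VTRNA1-1, VTRNA1-2 and VTRNA1-3, 20% to 35.7% at 20 bases also occurred in another of the genes, VTRNA2-1 included. At 30 bases the share was 1.67% to 8.57%. VTRNA2-1 itself shared 2.75% of its windows of 20 bases and 0% of those of 30 bases.

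Grouping copies by the gene with the fewest edits changed which Y RNA led. The 324 copies closest to RNY1 held 3575 and 2671 R1 counts, so that RNY1 itself held 49.4% and 49.97% of its group. The 370 copies closest to RNY3 held 9473 and 6587, so that RNY3 itself held only 2.60% and 2.90%. The group of RNY3 thus held more counts than the group of RNY1 in both libraries, although RNY3 alone had far fewer counts than RNY1. The 82 copies closest to RNY4 held 253 and 192. RNY5 had no sequence to compare, so its copies may stand in these groups.

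Some copies were counted almost only in R1. The highest, a Y_RNA row on chromosome 17 (58826301 to 58826407, ENSG00000252534.1), had 979 and 776 R1 counts but 16 and 19 R2 counts, and 89.4% identity to RNY1. The next were a row on chromosome 11 (64063509 to 64063610, ENSG00000207024.1; 470 and 393 R1 counts, 35 and 26 R2 counts) and a row on the X chromosome (41175741 to 41175842, ENSG00000238426.1; 522 and 337, and 134 and 78). The R2 count of the X chromosome row was 25.7% and 23.1% of its R1 count, so that row was not such a case. The copies closest to RNY1 had an R2 sum of 11.4% and 9.73% of their R1 sum, below RNY1 itself at 28.9% and 26.6%. Those closest to RNY3 had 37.5% and 34.7%, against 59.3% and 43.7% for RNY3.

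**Figure D3:**
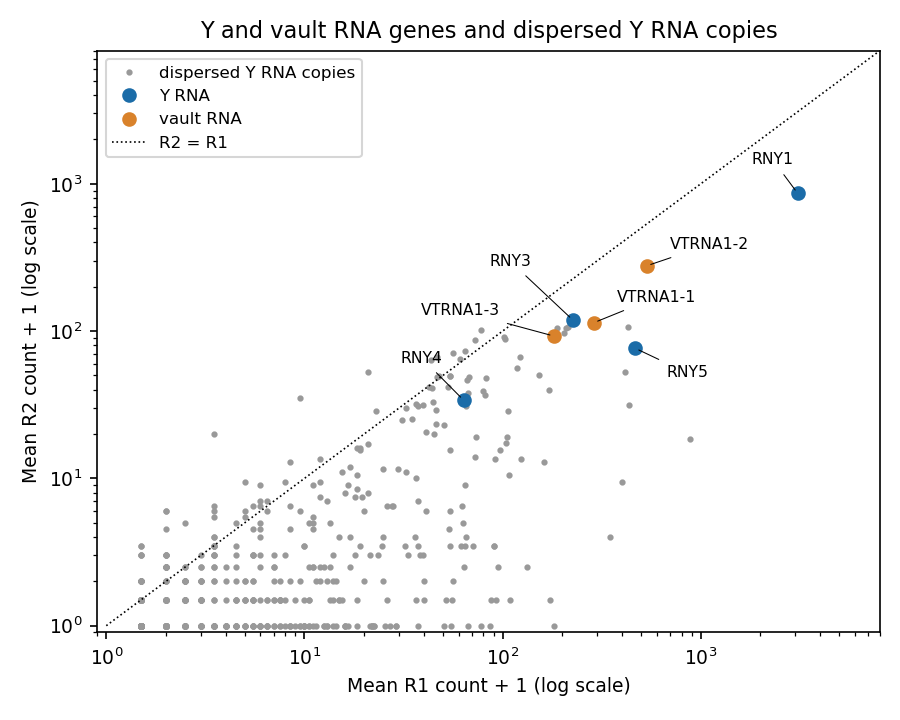
Mean R2 count against mean R1 count over the 2 libraries (1 added, log axes) for the Y RNA genes (blue), the vault RNA genes (orange) and the dispersed Y RNA copies with an R1 count (grey). RNY1 stands to the right of all copies, the highest of which had 979 and 776 R1 counts but 16 and 19 R2 counts.

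The split of counts between the libraries was tested for every feature with a mean count of at least 10, by an exact two-sided binomial test with Benjamini-Hochberg adjustment at 0.05. The test compares 1 library with the other and not conditions, and it covers counting error only. Sizes were scaled by the trimmed mean of M values (TMM), under which the median log2 ratio of replicate 2 over replicate 1 was 0.00 over 18723 features. With total counts as the scale that median was 1.09, so each value below is 1.09 higher on that scale, and changes are relative to the scale used. Under TMM scaling, 7 of the 7 tested genes were lower in replicate 2, beside 6.52% of all features tested that were called lower and 8.8% that were called in either direction. VTRNA2-1 had no counts and was not tested. Under total scaling 0 of the 7 were called, and 0 passed at an unadjusted p of 0.05, beside 82.7% of all features that were called and 1.44% that were called lower. Which scale is right cannot be told from these libraries.

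Relative to the median feature, RNY1 was lower in replicate 2 by a log2 ratio of -1.04 (95% interval -1.12 to -0.97, adjusted p = 3.53e-174, exact binomial test). The ratios of RNY3 (-1.01), RNY4 (-1.29) and RNY5 (-1.24) were alike, with adjusted p of at most 2.07e-05 by the same exact test. So were those of VTRNA1-1 (-1.02), VTRNA1-2 (-1.11) and VTRNA1-3 (-1.05), with adjusted p of at most 2.04e-10 by the same exact test. Under total scaling the 7 ratios ran from -0.19 for RNY4 to 0.08 for RNY3, with adjusted p from 0.152 to 0.887 by the exact test, and each interval included 0. For RNY1 that interval was -0.02 to 0.12, and for RNY4, with the fewest counts, it was -0.74 to 0.34. The median of the 473 tRNA features tested was -1.10 under TMM scaling and -0.01 under total scaling, and that of 187 dispersed Y RNA copies was -1.18 and -0.09.

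Of 7 other RNA polymerase III transcripts, 5 split otherwise. These 5 are 268 to 638 bases long, against 79 to 113 bases for the Y and vault RNA genes with counts. Whether length bears on the split was not tested. RN7SL2, a 7SL RNA of the signal recognition particle, had 5731 and 13457 counts, a TMM log2 ratio of 0.58 (95% interval 0.53 to 0.62). RN7SL1 stood at 0.43 and RPPH1, the RNA of ribonuclease P, at 0.41. RN7SK, which holds back the elongation factor P-TEFb, stood at -0.17 and RMRP, the RNA of ribonuclease MRP, at -0.14. The 95% intervals of these 5 lay above those of all 7 Y and vault RNA genes. The scale shifts every interval alike, so it cannot change this order. The difference between the sets was not tested in a model, because the spread between libraries cannot be estimated for a contrast of 2 single libraries. RNU6ATAC, a spliceosomal RNA of 126 bases, stood at -1.65 (interval -2.65 to -0.71), within reach of the Y and vault RNAs. BCYRN1, of 200 bases, stood at -0.48 (interval -1.34 to 0.40). The R2 count of RN7SL1, RN7SK, RPPH1 and RMRP was 79.0% to 90.1% of the R1 count, and that of RN7SL2, a near copy of RN7SL1, was 38.5% and 35.5%. The mate ratio of RN7SL2 lay below those of VTRNA1-2 and VTRNA1-3 although its log2 ratio was the highest of this list.

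**Figure D4:**
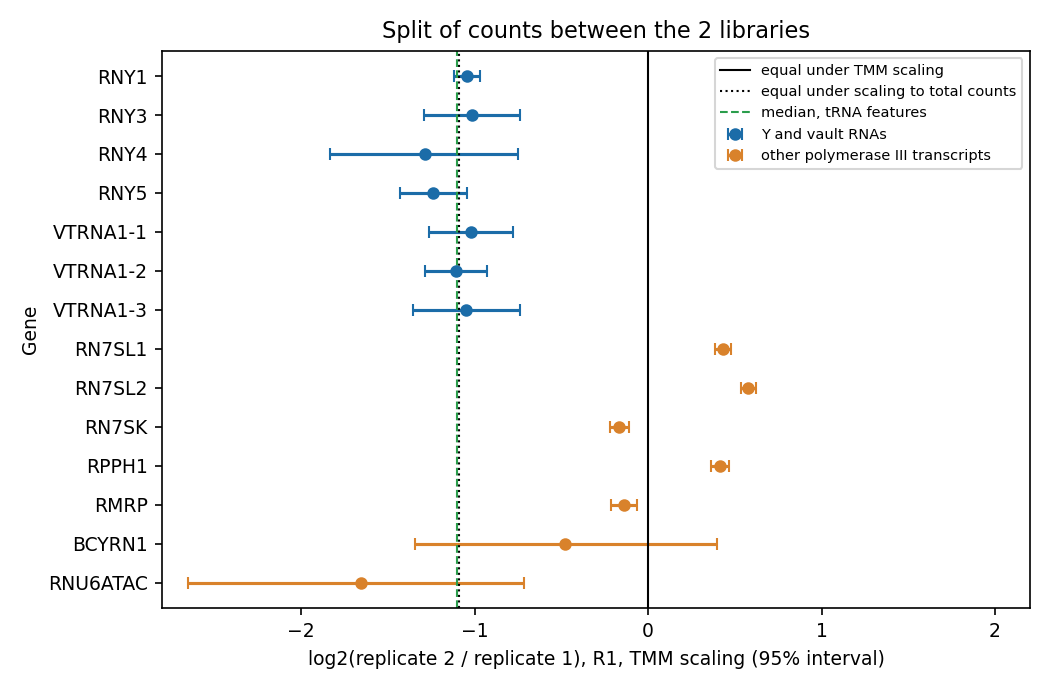
Log2 ratio of replicate 2 over replicate 1 under TMM scaling, with 95% intervals for counting error, for Y and vault RNAs (blue) and other RNA polymerase III transcripts (orange). The blue points, from -1.29 to -1.01, lie around the tRNA median (green, -1.10) and the line of equal shares of total counts (dotted). To their right lie 5 of the orange points, from -0.17 to 0.58, with intervals apart from the blue ones. BCYRN1, at -0.48, also lies to the right, but its interval reaches the blue points.

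The features whose pattern over the 4 tables was most like that of RNY1, by Euclidean distance of log2(CPM + 0.5) among short features, were RN7SKP118 (distance 0.37), the 5S rRNA pseudogene RNA5SP202 (0.79) and RNU2-2P (1.01). For VTRNA1-2 they were RN7SKP79 (0.21), RNU1-27P (0.25) and RNU1-4 (0.42). These 4 values come from 2 libraries, and they share depth and processing. RN7SKP118, the nearest to RNY1, stood at 109 and 139 CPM in R1 and at 98.4 and 96.6 CPM in R2.

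The genes of proteins that bind these RNAs were counted too, over whole gene spans. Introns are thus included, and these CPM are neither levels of mRNA alone nor scaled by length. Of 18 symbols listed as Y RNA partners, 17 were found, all with a mean count of at least 10. IGF2BP1, an mRNA-binding protein gene, was the highest at 38.0 ± 21.1 CPM, followed by PTBP1, a splicing repressor gene, at 28.7 ± 18.2 CPM, and CALR, which encodes calreticulin, at 27.3 ± 15.5 CPM (SD, n = 2 each). Per kilobase of span the order was reversed, with CALR at 4.62 CPM, PTBP1 at 1.88 and IGF2BP1 at 0.652. TROVE2, which encodes Ro60, had 160 and 276 counts (9.57 ± 5.42 CPM), and SSB, which encodes La, had 86 and 151 (5.21 ± 3.01 CPM; SD, n = 2 each). Of the 17, 1 passed the exact binomial test under TMM scaling, PTBP1, higher in replicate 2 (log2 ratio 0.30, adjusted p = 0.00705). Among all features, 2.29% were called higher.

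Of the 10 genes listed as vault partners, 9 were tested and 0 passed under TMM scaling by the same test. Among all features, 8.8% were called in either direction, so 0 of 9 says little. SRSF2, a splicing factor gene, was the highest at 15.5 ± 9.86 CPM, followed by DICER1 at 11.95 ± 6.52 CPM (SD, n = 2 each). MVP, which encodes the major vault protein, had 41 and 38 counts (1.66 ± 0.266 CPM; SD, n = 2). TEP1 and PARP4, which encode the other vault proteins, stood at 1.88 ± 0.780 and 4.95 ± 2.75 CPM (SD, n = 2 each). OAS1 had 0 and 5 counts. Of 29 genes of the RNA polymerase III machinery, all were tested. GTF3C1, a subunit of the factor that binds the B box, led that list at 26.2 ± 13.9 CPM, followed by BDP1 at 11.8 ± 5.64 CPM and POLR3A at 11.6 ± 5.83 CPM (SD, n = 2 each). Per kilobase of span, MAF1 was the highest of that list at 1.23 CPM, against 0.290 for GTF3C1. The median log2 ratio was 0.11 for the Y RNA partners, 0.08 for the vault partners and 0.13 for the machinery, beside 0.00 over all features. Of these 3 lists under total scaling, 16, 8 and 28 genes were called higher, beside 81.3% of all features.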

How the data were processed

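The 4 tables the authors deposited give raw counts of reads for each feature, with R1 and R2 mates apart. The submitters' processing notes name bedtools 2.24.0, Bowtie2 2.3.5.1 and the hg19 (GRCh37) build. The sources used here give no alignment options, strand setting or rule for reads with several matches. Per the labels' protocols, RNA was dephosphorylated and treated to remove modifications, and the cDNA was size-selected and amplified by PCR.

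Of 741091 lines, 13 repeats were dropped. CPM and shares were computed from table totals, with exact Clopper-Pearson 95% intervals. The libraries were compared by an exact binomial test over 18723 features, with TMM sizes from edgeR 4.0.16 in R 4.3.3. The alternatives were DESeq2 1.42.0 size factors, other denominators, mates and count minimums, and each replicate left out. Sequences of GENCODE release 29 transcripts (GRCh38) were matched by gene identifier and aligned end to end with edlib, identity being the share of equal alignment columns. Values were computed in Python 3.11.15 (scipy 1.17.1, pandas 2.3.3, numpy 2.4.6) and drawn with matplotlib 3.10.9. On simulated splits with counting error only, at mean counts of at least 50, the binomial test called 88.5% of 2-fold and 100% of 4-fold changes, and 0.0324% of unchanged features overall. At lower counts it called 11.9% and 64.3%.

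Named were all 8 genes, RNA polymerase III transcripts, list leaders, the 3 nearest patterns and the 3 highest copies. The genes, lists and rules were chosen with earlier results of these data known. TROVE2, SSB, MVP, TEP1, PARP4, OAS1, MAF1 and VTRNA3-1P lie outside the rule for leaders and were named after their values were seen. Grouping copies by closest gene was also chosen after the values were seen. The calls between libraries for the RNA polymerase III machinery under TMM scaling and some sequences are not reported here.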

Additional observations from a re-analysis of the deposited data

How the results depend on the processing

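In R2 the Y RNA share was 0.0108% and the vault RNA share 0.00474%, and their ratio was 2.28. The sum of mates gave 0.0143%, 0.00431% and 3.33. Without tRNA features and features overlapping one in the total, the shares were 0.131% and 0.0343%, and without the 10 highest features 0.0276% and 0.00720%; both settings shrink the total by construction. With copies added the Y RNA share was 0.0678%, and with other vault rows added the vault share was 0.00421%. Adding copies equal in sequence to a gene, chosen after the data were seen, changed nothing, since none was found. Copies without a sequence and copies of RNY5 could not be checked. The number of genes called between libraries was 7 under the other settings run and 0 with total counts. Of 18723 features tested, 1648 were called under TMM, 1655 with DESeq2 size factors, 15491 with total counts and 4597 with tRNA left out of the total. The number tested differed in the other settings. Calls were 3736 of 21902 with the sum of mates, 1144 of 17753 in R2, 1426 of 40552 at a minimum of 1 and 1247 of 78377 with no minimum. Leaving out a replicate gave Y RNA shares of 0.0157% to 0.0160%, a shift that is under 1 SD for any mean of 2 libraries and so says nothing of stability. The level of single genes moved by more than 1 SD for all 7 genes with counts in R2 (3 lower, 4 higher) and with either other total (7 higher), and for 5 with the sum of mates (2 lower, 3 higher). No paired analysis was possible because all libraries belong to 1 group. VTRNA2-1, with 0 counts, could not be tested, and of the 7 genes with counts depth limits RNY4 most, with 49 in replicate 2.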
